A study of Mus musculus with 12 samples.

Results

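Wnt proteins are secreted lipid-modified ligands that bind Frizzled receptors at the cell surface, where co-receptors such as Lrp5, Lrp6, Ror2 and Ryk take part. In the canonical branch the signal stabilises beta-catenin, which acts with Tcf and Lef factors on target genes, and in the other branches it runs through planar polarity proteins or calcium. Secreted antagonists hold the signal back, either by binding the ligand (the Sfrp proteins, Frzb and Wif1) or by binding the co-receptor (Dkk proteins). In arteries the pathway is known for its roles in smooth muscle growth, fibrosis and calcification.

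The family of ligands, Frizzled receptors and antagonists was chosen with earlier results of these data known. Its members were taken by gene name, without use of any measured value. They are every Wnt, Fzd, Sfrp and Dkk gene plus Wif1 and Frzb on the array. There were 39 such genes among 34797 gene names on the array, read by 46 of 55681 probes, and each carried a transcript accession that RefSeq lists under the same symbol. Of these, 28 were among the 22761 genes tested, with 11 ligands of 19, 9 receptors of 10 and 8 antagonists of 10. The remaining 11 genes, Dkk1, Dkk4, Fzd10, Wnt10a, Wnt2b, Wnt3, Wnt3a, Wnt7a, Wnt7b, Wnt8a and Wnt8b, were above background on at most 2 of the 12 arrays and were not tested. Of the 28 tested genes, 25 were well above background on all 12 arrays, and the exceptions were Wnt4 on 11 arrays, Wnt2 on 9 and Wnt9b on 8.

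Aortic RNA of male mice was read on 12 arrays with 1 dye, 3 for each of 4 groups, in a study of aortic dissection and the cytokine-signal suppressor Socs3. All mice were of a mixed background that the labels give as 129S5/SvEvBrd with C57BL6 and SJL, and all carried the floxed Socs3 allele on both chromosomes. WT mice were littermates without Cre, and smSocs3-KO mice carried a Cre gene under the SM22 promoter, which acts in smooth muscle cells, so that cells in which it is silent keep the allele intact. Arrays were made before any challenge and at day 3 of beta-aminopropionitrile (BAPN, an inhibitor of collagen and elastin cross-linking) at 150 mg/kg/day together with angiotensin II at 1000 ng/kg/min from an osmotic minipump. The labels give no age and do not say whether each array came from a separate mouse, so the p-values here measure the spread between arrays. Smooth muscle markers had a mean log2 signal of 6.28 ± 0.01 (SD, n = 3) over 8 genes in WT before challenge.

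Facts of the whole series bear on what follows. Socs3 itself was not lower under the smSocs3-KO label: its log2 signal lay between 0.30 and 0.75 on unchallenged WT arrays and between 0.24 and 1.46 on unchallenged smSocs3-KO arrays. At day 3 the ranges were 0.64 to 2.30 and 2.28 to 4.13. Whether its probe lies in the deleted part is not given in the sources used here, and the group name below means the arrays labelled smSocs3-KO. The arrays lay on 2 slides. Slide 1 held all 6 WT arrays and smSocs3-KO before challenge replicate 1, and slide 2 held the other 5 smSocs3-KO arrays, so the WT response was measured within 1 slide while at day 3 genotype and slide cannot be told apart. Spots well above background made up 55.4% to 61.2% of an array. WT day 3 replicate 4 stood apart from the other WT day 3 arrays, with a mean log2 signal of -0.32 over 7 proliferation markers against 2.48 and 2.52. In bulk tissue a lower signal can come from fewer cells of a type or from less RNA per cell, and these cannot be told apart.

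All values below are log2 signals relative to the 75th percentile of the array's own signals, so a value of 0 is a signal at that percentile. They are not comparable between genes, because each probe has its own brightness. A gene was called changed at a limma adjusted p under 0.05, adjusted over all 22761 genes. A second threshold, an unadjusted p under 0.01 with a fold above 4 or below 0.25, was applied beside it. It is called the study's own threshold below. It comes from a paper that combined these arrays with other series and does not say whether its p was adjusted.

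In all 5 genes, Frzb, Fzd5, Fzd8, Wnt16 and Wnt4, were called in at least 1 comparison, and 4 of them, Frzb, Fzd5, Wnt16 and Wnt4, have a promoter in the RefSeq table. Their 250 bases before the transcription start are shown here because these are the genes the results turn on. Capitals mark a match to TTCNNNGAA, the palindromic motif of STAT factors, which Socs3 restrains. Coordinates are of build GRCm38.p6, and each sequence runs 5′ to 3′ on the gene's strand. The minus strand holds Frzb at chr2:80447397-80447646 and Fzd5 at chr1:64737751-64738000, and the plus strand holds Wnt16 at chr6:22287977-22288226 and Wnt4 at chr4:137277385-137277634.
Frzb: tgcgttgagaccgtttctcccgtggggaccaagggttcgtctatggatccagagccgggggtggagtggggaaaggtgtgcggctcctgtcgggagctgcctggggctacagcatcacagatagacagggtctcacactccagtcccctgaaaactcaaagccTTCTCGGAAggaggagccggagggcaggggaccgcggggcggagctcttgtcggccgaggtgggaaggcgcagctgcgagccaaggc
Fzd5: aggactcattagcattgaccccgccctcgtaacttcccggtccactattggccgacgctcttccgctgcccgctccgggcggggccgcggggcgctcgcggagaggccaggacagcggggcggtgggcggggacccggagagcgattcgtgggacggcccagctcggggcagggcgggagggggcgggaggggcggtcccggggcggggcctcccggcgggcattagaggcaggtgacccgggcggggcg
Wnt16: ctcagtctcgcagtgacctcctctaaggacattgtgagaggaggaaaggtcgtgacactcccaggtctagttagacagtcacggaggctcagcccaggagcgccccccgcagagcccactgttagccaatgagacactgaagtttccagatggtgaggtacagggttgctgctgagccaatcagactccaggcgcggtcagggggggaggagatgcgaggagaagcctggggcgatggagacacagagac
Wnt4: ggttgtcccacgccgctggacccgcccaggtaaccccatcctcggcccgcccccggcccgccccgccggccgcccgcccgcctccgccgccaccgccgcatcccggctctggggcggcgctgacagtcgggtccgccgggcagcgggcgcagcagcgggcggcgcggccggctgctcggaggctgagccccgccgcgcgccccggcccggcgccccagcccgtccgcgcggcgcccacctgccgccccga

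Frzb had 1 match, TTCTCGGAA, starting 87 bases before the start, and the other 3 had none in this window. The upstream stretch of Wnt4 was 85.2% G and C, that of Fzd5 76.4%, that of Frzb 64.4% and that of Wnt16 59.2%. Over the full RefSeq promoters, which add 50 bases after the start, 20 of the 28 tested genes matched with 23 promoters. TTCNNNGAA was in 2 of these 23 (8.70%) and in 8.30% of all 32851 promoters. The Tcf/Lef sequences CTTTGAA and CTTTGAT, searched on both strands, were in 2 of 23 (8.70%) and in 8.65% of all, and in none of those 4. The 2 motifs can share bases.

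The first question was how the ligands, receptors and antagonists responded to 3 days of challenge. In WT aortas none of the 28 was called by limma, against 4.68% of all genes tested, and 3 reached an unadjusted p under 0.05, against 26.6% of all genes. In smSocs3-KO aortas the antagonist Frzb rose and the receptor Fzd5 fell, 2 of 28 against 2.45% of all genes. Over both genotypes together, taken as the mean of the 2 responses, Frzb rose and Fzd5, Fzd8 and Wnt16 fell, 4 of 28 or 14.3% against 22.7% of all genes. An unadjusted p under 0.05 was reached by 5 of the 28 in smSocs3-KO, against 23.8% of all genes, and by 6 in the mean response, against 39.1%. By the study's own threshold none of the 28 passed in WT, in smSocs3-KO or in the mean response, against 1.28%, 1.63% and 1.27% of all genes. The median log2 change of the 28 was -0.07 in WT and -0.09 in smSocs3-KO, beside -0.02 and -0.06 over all genes. The groups before and after challenge did not overlap for 4 of the 28 in WT, against 35.3% of all genes, and for 6 in smSocs3-KO, against 28.1%.

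**Figure D1:**
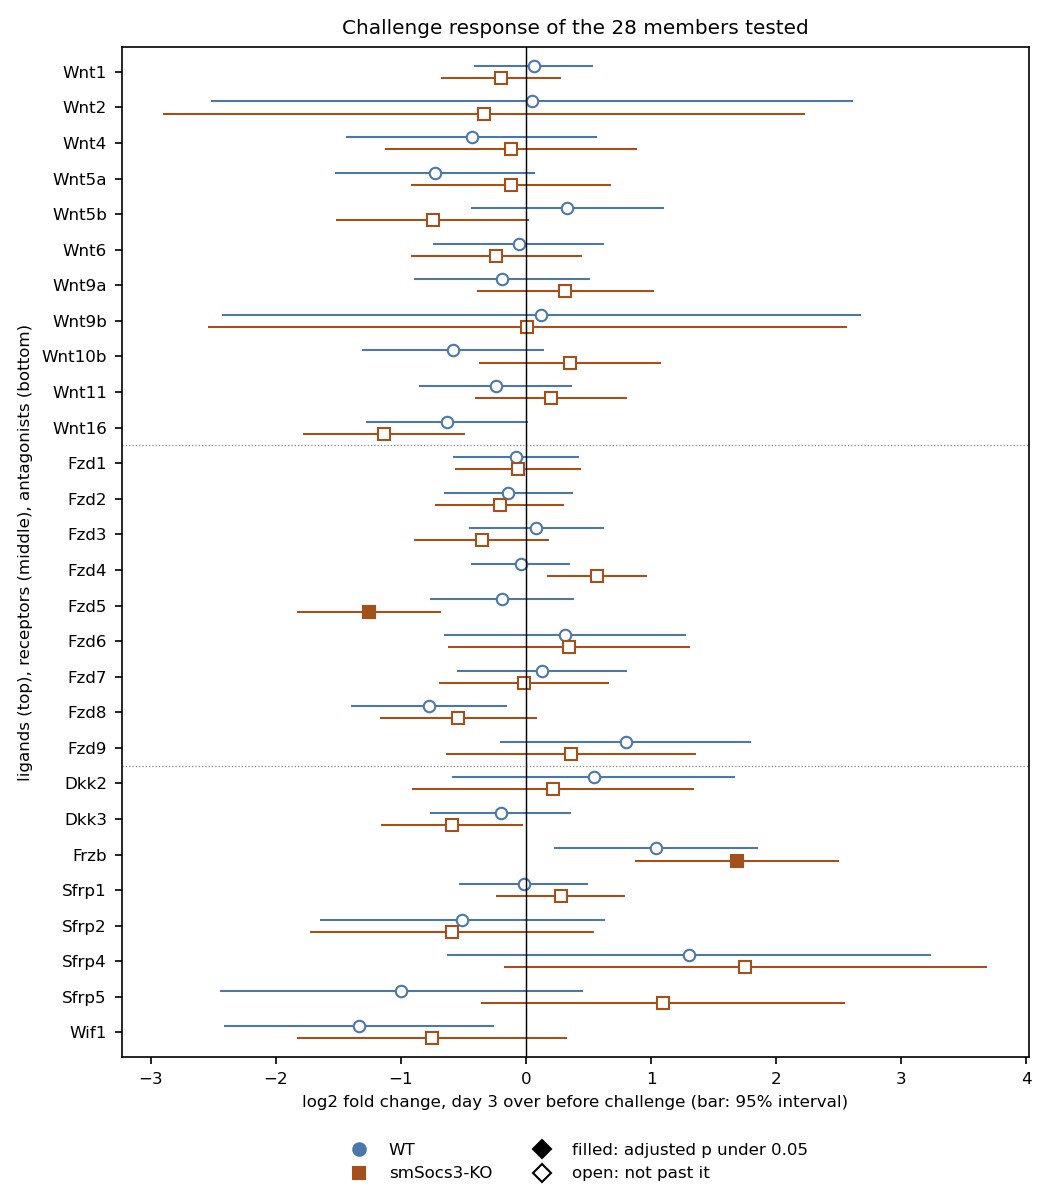
Log2 fold change from before challenge to day 3 (x axis) for the 28 tested genes (y axis, by role), with circles for WT, squares for smSocs3-KO, bars for 95% intervals and filled symbols for limma adjusted p under 0.05. The filled symbols are Frzb at 1.69 and Fzd5 at -1.26, both in smSocs3-KO, and the widest intervals belong to the dim ligands Wnt2 and Wnt9b.

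Among the ligands, Wnt16, a ligand best known from bone and joint tissue, had the lowest p in the response to challenge. Its log2 signal in WT was 1.63, 1.66 and 0.89 before challenge and 0.45, 0.50 and 1.33 at day 3. The smSocs3-KO arrays read 1.77, 1.35 and 1.13 before and 0.05, 0.35 and 0.44 at day 3. The smSocs3-KO groups did not overlap, while in WT the day 3 replicate 4 lay among the arrays before challenge. The mean response was a fall of 1.85-fold (log2 -0.88, SE 0.21, limma adjusted p = 0.0157), which was called in 21 of 22 alternative settings. Some of these settings amount to nearly the same fit. Within each genotype the Wnt16 fall was not called, at -0.63 (adjusted p = 0.196) in WT and -1.14 (adjusted p = 0.0662) in smSocs3-KO. Without WT day 3 replicate 4 the WT value was -0.92 with an adjusted p of 0.0482. That fit called 3628 of 22761 genes in WT, against 1065 with all arrays, and 3 of the 28 family genes. No other fit that left out an array called a family gene in WT. A second Wnt16 probe, above background on all 12 arrays, moved by -0.23 in WT and -0.89 in smSocs3-KO.

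Wnt5a, the main ligand of the branches that do not use beta-catenin, was 2.0, 2.23 and 2.27 in WT before challenge and 1.60, 1.27 and 1.44 at day 3. These WT groups did not overlap, with day 3 lower on every array, and the difference of -0.73 (SE 0.36) had a limma adjusted p of 0.226. In smSocs3-KO it was 1.78, 1.82 and 1.41 before challenge and 2.25, 1.91 and 0.51 at day 3, where replicate 5 alone lay below all other arrays. The smSocs3-KO change was -0.12 (SE 0.36), and the 2 responses differed by 0.61 with a 95% interval from -0.52 to 1.74. Of the remaining 9 ligands none was called in either genotype. Wnt5b, the close relative of Wnt5a, had smSocs3-KO day 3 values from 0.24 to 1.87 against 1.80 to 2.08 before challenge, with the lowest value again on replicate 5. Wnt2 and Wnt9b, read near background, spread from -6.45 to -1.61 and from -4.49 to -2.72 within WT day 3 alone.

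Among the receptors, Fzd5 fell in smSocs3-KO. Its values were -1.11, -1.1 and -1.16 before challenge and -2.44, -2.57 and -2.13 at day 3, so all 3 challenged arrays lay below all others in that genotype. This was a fall of 2.39-fold (log2 -1.26, SE 0.26, limma adjusted p = 0.0391). In WT the values were -1.27, -1.34 and -1.26 before challenge and -2.12, -1.44 and -0.88 at day 3, which spread to both sides, with a change of -0.19 (SE 0.26, adjusted p = 0.667). The difference between the 2 responses was -1.07 (95% interval -1.88 to -0.25), with an adjusted p of 0.897 over all genes. A second Fzd5 probe changed by -0.98 in smSocs3-KO and -0.27 in WT. The call held in 7 of 24 alternatives, and within slide 2 alone the fall was -1.25 (adjusted p = 0.0741). Leaving out a WT array, using only the groups compared, or limma's trend and robust options could change only its p, not its size. Of the 12 fits that left out 1 array the call held in 2, those without WT day 3 replicate 1 or 4.

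Fzd8, the receptor most similar to Fzd5, was -0.76, -0.53 and -0.98 in WT before challenge and -1.84, -1.92 and -0.82 at day 3. In smSocs3-KO it was -1.14, -0.83 and -0.81 before and -1.65, -1.14 and -1.61 at day 3. The mean response was a fall of 1.58-fold (log2 -0.66, SE 0.20, limma adjusted p = 0.0393), called in 10 of 22 alternatives. Without WT day 3 replicate 4, the highest of the challenged arrays, the WT fall was -1.13 (adjusted p = 0.00826) in place of -0.77 (adjusted p = 0.119). That fit called 3628 of 22761 genes in WT, against 1065 with all arrays. Fzd4, a receptor of endothelial cells that also binds norrin, was 3.23, 3.36 and 3.32 in smSocs3-KO before challenge and 4.09, 4.05 and 3.46 at day 3. In WT it was 3.7, 3.82 and 3.89 before and 3.65, 3.76 and 3.87 at day 3. The smSocs3-KO rise of 0.57 (SE 0.18) was not called, with an adjusted p of 0.103, nor was the difference between responses of 0.61 (adjusted p = 0.925). The other 6 receptors, Fzd1, Fzd2, Fzd3, Fzd6, Fzd7 and Fzd9, had no call, with changes between -0.35 and 0.80 over both genotypes. For Fzd2 the 2 probes disagreed in smSocs3-KO, at -0.21 for the brighter and 0.97 for the dimmer.

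**Figure D2:**
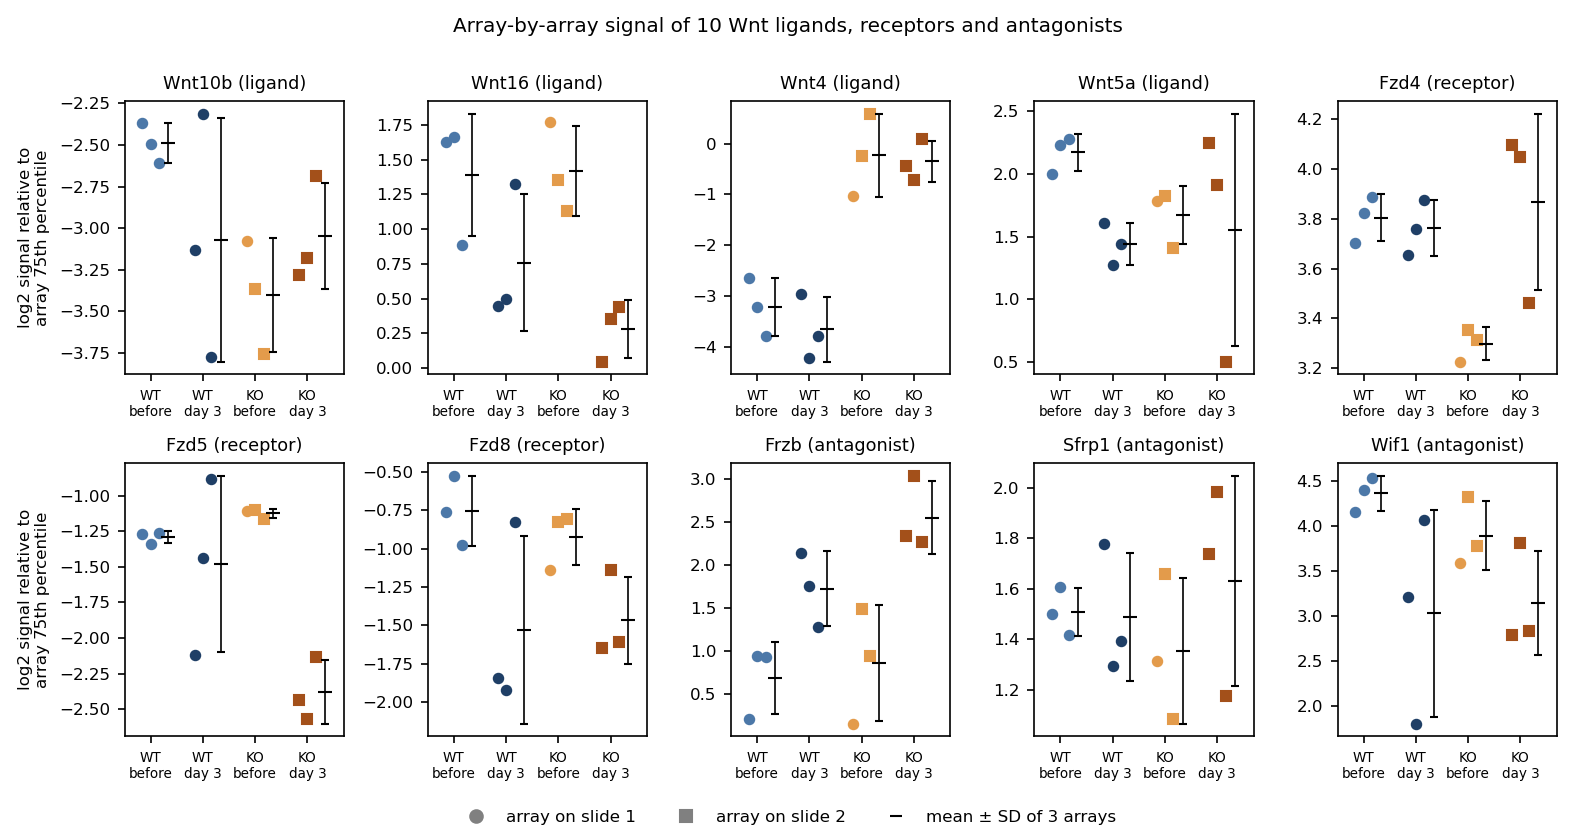
Log2 signal relative to the array's 75th percentile (y axis, own scale in each panel) in the 4 groups (x axis, KO for smSocs3-KO) for 10 genes, with 1 point for each array, circles for slide 1, squares for slide 2, and a dash with bars for the mean ± SD of 3 arrays. Wnt4 separates by genotype with no overlap, from -4.22 to -2.65 in WT and from -1.04 to 0.59 in smSocs3-KO, while Frzb, Fzd5 and Wnt16 separate by day within smSocs3-KO.

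Among the antagonists, Frzb, also called Sfrp3, which binds Wnt ligands outside the cell, had the lowest p of the family over both genotypes. Its values in WT were 0.21, 0.94 and 0.93 before challenge and 2.15, 1.76 and 1.28 at day 3. In smSocs3-KO they were 0.15, 1.49 and 0.95 before and 2.34, 3.04 and 2.27 at day 3. Day 3 was above all arrays before challenge in each genotype. The rise was 3.22-fold in smSocs3-KO (log2 1.69, SE 0.37, limma adjusted p = 0.0431) and 2.05-fold in WT (log2 1.04, SE 0.37, adjusted p = 0.111), and the 2 rises differed by 0.65 with a 95% interval from -0.50 to 1.81. The mean rise of 2.57-fold (log2 1.36, SE 0.26, adjusted p = 0.00865) was called in all 22 alternatives, whose values ran from 1.19 to 1.52. The smSocs3-KO rise alone was called in 7 of 24, in the same 2 of the 12 fits without 1 array, and it was 1.33 within slide 2 (adjusted p = 0.129).

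Wif1, which also captures Wnt ligands, was 4.15, 4.40 and 4.54 in WT before challenge and 3.22, 1.81 and 4.07 at day 3. All 3 challenged WT arrays lay below the others, from just below to far below, and the change of -1.33 (SE 0.49) was not called, with a limma adjusted p of 0.119. Without WT day 3 replicate 4, the challenged WT array nearest those before challenge, it was -1.85 with an adjusted p of 0.0199. That fit called 3628 of 22761 genes in WT, against 1065 with all arrays. Values in smSocs3-KO were 3.59, 4.32 and 3.77 before and 2.79, 3.82 and 2.83 at day 3, a change of -0.75 (adjusted p = 0.367) with overlapping groups. Sfrp1, which binds Wnt ligands through a Frizzled-like domain, was 1.5, 1.61 and 1.42 in WT before challenge and 1.78, 1.30 and 1.39 at day 3. In smSocs3-KO it was 1.32, 1.66 and 1.09 before and 1.74, 1.99 and 1.17 at day 3. Its groups overlapped throughout, and its changes were -0.02 (95% interval -0.54 to 0.50) in WT and 0.28 (95% interval -0.24 to 0.79) in smSocs3-KO.

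Sfrp4, singled out after its values were seen, had the largest estimate of any of the 28 genes over both genotypes, 1.53 (SE 0.62, limma adjusted p = 0.0942). It was 2.58, 3.29 and 2.94 in WT before challenge and 4.42, 4.85 and 3.46 at day 3, and 2.39, 2.64 and 2.35 in smSocs3-KO before challenge. At day 3 the smSocs3-KO arrays read 6.65, 4.0 and 2.0, so 1 array lay far above and another below every unchallenged array of that genotype. Sfrp2 was lowest on the same replicate 5 as Wnt5a and Wnt5b, at 3.16 against 4.44 to 5.92 on all other arrays. Sfrp5, an antagonist known from fat tissue, had the largest difference between the 2 responses, 2.09 (SE 0.93, adjusted p = 0.927), with -1.0 in WT and 1.1 in smSocs3-KO and overlapping groups in each. Markers of fat cells varied widely within groups, with list means over 6 genes from 0.74 to 3.77 in WT day 3, and their part in this value was not tested. Dkk2 and Dkk3 had no call, with changes between -0.59 and 0.54.

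Other cell types moved with the challenge. All 7 proliferation markers had positive changes in both genotypes, by 3.42 to 4.96 in WT, where 7 were called, and by 1.85 to 3.75 in smSocs3-KO, where 1 was. Bub1 tops the WT range, and Cdk1 tops the smSocs3-KO range and is the call there. Before challenge Bub1 was well above background on 0 of 3 arrays in each genotype, and Cdk1 on 0 of 3 in WT and 1 of 3 in smSocs3-KO. Both passed the background filter only through the challenged groups, so these upper sizes depend on the background. Of 8 macrophage and monocyte markers 7 had positive changes in each genotype, with a median over the list of 1.07 in WT, where 0 were called, and 1.29 in smSocs3-KO, where 4 were. The macrophage list mean lay between 2.35 and 2.38 on WT arrays without challenge and between 2.57 and 3.92 on challenged ones. For smSocs3-KO these ranges were 2.40 to 2.93 and 3.81 to 3.92. All 8 smooth muscle markers had negative changes in both genotypes and none was called within a genotype, and their list means ran from 6.21 to 6.63 in smSocs3-KO before challenge and from 5.46 to 5.89 at day 3. The fibroblast list had means from 4.33 to 4.63 and from 4.93 to 5.31 in those groups, with 1 of 8 markers called higher. In the mean response 7 proliferation and 6 macrophage markers were called higher, and the smooth muscle markers Myh11 (-1.09) and Myocd (-0.62) lower. The part of these shifts in the changes of Frzb, Fzd5, Fzd8 and Wnt16 was not tested.

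The second question was whether the genotypes differed. Before challenge none of the 28 was called by limma, against 0.0264% of all genes, and 3 had an unadjusted p under 0.05, against 4.4% of all genes. At day 3 the ligand Wnt4 was called higher in smSocs3-KO, 1 of 28 against 1.11% of all genes, and 3 had an unadjusted p under 0.05, against 16.2%. By the study's own threshold Wnt4 passed both before challenge, against 0.242% of all genes, and at day 3, against 1.11%. That pass was lost at both times with normexp background correction, and at day 3 with slide as a block. The median difference over the 28 was -0.15 before challenge and 0.04 at day 3, beside 0.00 and -0.08 over all genes. The groups did not overlap for 8 of the 28 before challenge, against 11.1% of all genes, and for 5 at day 3, against 20.5%.

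Wnt4, a ligand that acts in kidney and gonad formation and in muscle, was -2.65, -3.22 and -3.79 in WT before challenge and -2.96, -4.22 and -3.78 at day 3. The smSocs3-KO values were -1.04, -0.25 and 0.59 before challenge and -0.43, -0.71 and 0.09 at day 3. All 6 smSocs3-KO arrays lay above all 6 WT arrays, and within each genotype the days overlapped. The difference was 7.93-fold before challenge (log2 2.99, SE 0.45, limma adjusted p = 0.101) and 9.86-fold at day 3 (log2 3.30, SE 0.45, adjusted p = 0.0141). These sizes depend on the background correction. With normexp correction the log2 differences were 1.79 (adjusted p = 0.0700) and 1.80 (adjusted p = 0.00781), and 1 WT day 3 array was not well above background for this probe. Challenge changed it by -0.43 in WT and -0.12 in smSocs3-KO, neither called. The probe lies at chr4:136855342-136855401 of build mm9 as the scanner output gives it. A second Wnt4 probe, at chr4:136851690-136852258, was well above background on 0 of 3 WT arrays before challenge and 1 of 3 at day 3, and on all 6 smSocs3-KO arrays. It passed the background filter only through the smSocs3-KO groups, so it is no separate support for the difference.

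The smSocs3-KO array on slide 1, at -1.04, lay above all 6 WT arrays of its slide, of which the highest was -2.65, and below the other 5 smSocs3-KO arrays. Within slide 1 the Wnt4 difference before challenge was therefore 2.18, a value given without a p because it sets 1 smSocs3-KO array against 3 of WT. With slide as a block, a fit that separates slide from genotype through that 1 array, the day 3 difference was 2.09 (adjusted p = 0.257) and not called. The day 3 call held in 18 of 22 alternatives. Besides the slide block, it was lost with the replicate number as a block (adjusted p = 0.202). It was also lost without WT day 3 replicate 3 (adjusted p = 0.0512) and without smSocs3-KO day 3 replicate 5 (adjusted p = 0.0619). With only probes above background on all 12 arrays Wnt4 was not tested, and that setting is not in the total. Before challenge the difference was called only without smSocs3-KO replicate 1, the slide 1 array (log2 3.39, adjusted p = 0.0420). In that fit all WT arrays are on slide 1 and all smSocs3-KO arrays on slide 2, so genotype and slide cannot be told apart. The array left out is also the lowest of its group, so leaving it out raises the difference.

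Markers of mesothelial cells, which line the outer surface of organs in body cavities, moved with Wnt4. The list mean over Msln, Upk3b, Dmkn, Lrrn4, Krt19 and Wt1 ran from -1.60 to 0.72 before and from -1.76 to 0.48 after challenge in WT. In smSocs3-KO the same ranges were 1.83 to 3.20 and 1.85 to 2.30. All 6 markers had higher means in smSocs3-KO at both times, by 1.34 to 5.62 before challenge and 1.5 to 4.42 at day 3, of which Dmkn was called at both. None of the 6 was at background as a group: each was well above it on at least 2 of 3 arrays in every group. Fibroblast list means also lay apart at day 3, from 3.88 to 4.43 in WT and from 4.93 to 5.31 in smSocs3-KO, with 7 of 8 markers higher and Pi16 and Dpt called, while before challenge they overlapped, at 4.26 to 4.43 and 4.33 to 4.63. The part of mesothelial or fibroblast RNA in the Wnt4 difference and in the day 3 value of Frzb was not tested.

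**Figure D3:**
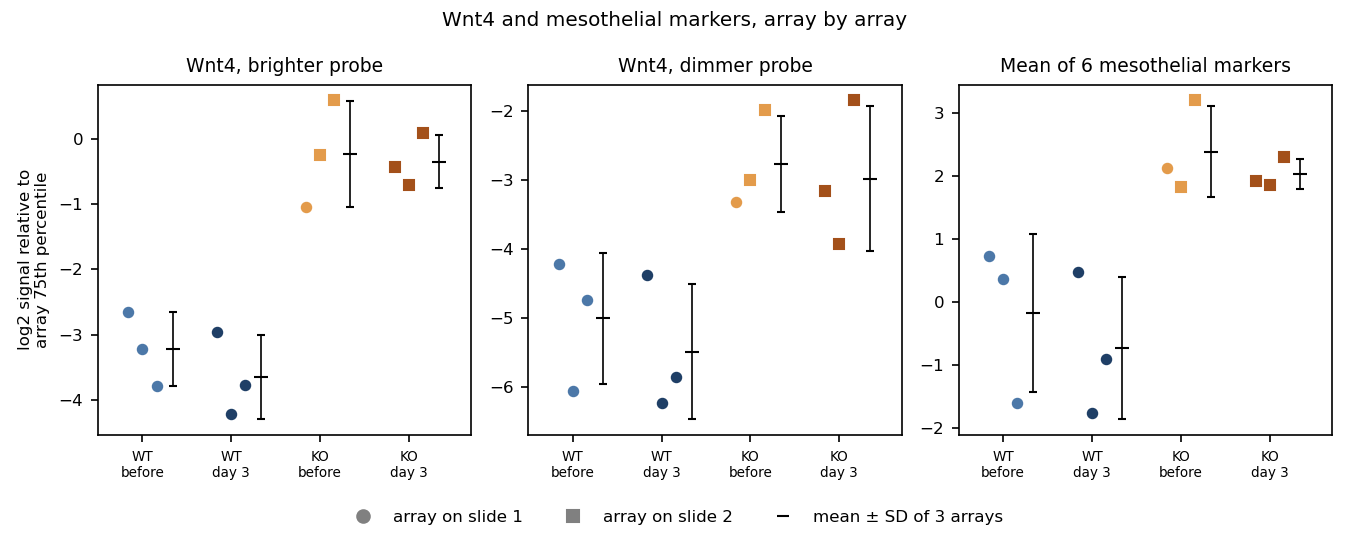
Log2 signal relative to the array's 75th percentile (y axes) in the 4 groups (x axes, KO for smSocs3-KO) for the brighter and the dimmer Wnt4 probe and for the mean of 6 mesothelial markers, with 1 point for each array, circles for slide 1, squares for slide 2, and a dash with bars for the mean ± SD of 3 arrays. In all 3 panels the 6 smSocs3-KO arrays, the slide 1 array included, sit above the 6 WT arrays. The dimmer probe was near background in WT and passed the background filter only through the smSocs3-KO groups, so its panel is no separate support.

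No other ligand was called between genotypes. Wnt10b, a beta-catenin-branch ligand, was -2.37, -2.50 and -2.61 in WT and -3.07, -3.37 and -3.76 in smSocs3-KO before challenge, where the groups did not overlap, and the difference of -0.91 (SE 0.33) had a limma adjusted p of 1.0. At day 3 it was -3.13, -2.31 and -3.77 against -3.28, -3.18 and -2.69, a difference of 0.02 (95% interval -0.71 to 0.75). Wnt9b was higher on average in smSocs3-KO at both times, by 1.75 and 1.64 (adjusted p = 1.0 and 0.524), but its smSocs3-KO day 3 arrays ran from -5.09 to 0.46. Before challenge the smSocs3-KO arrays read -3.24, -2.83 and -0.62. That was the only group with Wnt9b well above background on all 3 arrays, against 2 of 3 in WT before challenge and 1 of 3 in WT at day 3. It passed the background filter only through that group, so these sizes depend on the background. Wnt5a differed by -0.50 before challenge and 0.11 at day 3, neither called.

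Among the receptors, Fzd4 read below WT on every smSocs3-KO array before challenge (-0.51, SE 0.18, limma adjusted p = 1.0), and differed by 0.11 at day 3. Fzd5 differed by -0.90 at day 3 (SE 0.26, adjusted p = 0.136), and all 3 smSocs3-KO arrays lay below all 3 WT arrays. Without WT day 3 replicate 1, the lowest WT array, that difference was -1.22 with an adjusted p of 0.0353. Leaving out the WT array nearest the smSocs3-KO values necessarily widens it. No other fit that left out an array called a family gene lower at day 3. Among the antagonists, Frzb at day 3 was 0.82 higher in smSocs3-KO (adjusted p = 0.306) with no overlap. With slide as a block the value was -0.24 (adjusted p = 0.846). That fit separates slide from genotype only through smSocs3-KO before challenge replicate 1, so it cannot settle the direction of the Frzb difference. Sfrp1 differed by -0.15 (95% interval -0.67 to 0.36) before challenge and by 0.14 (95% interval -0.37 to 0.66) at day 3.

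**Figure D4:**
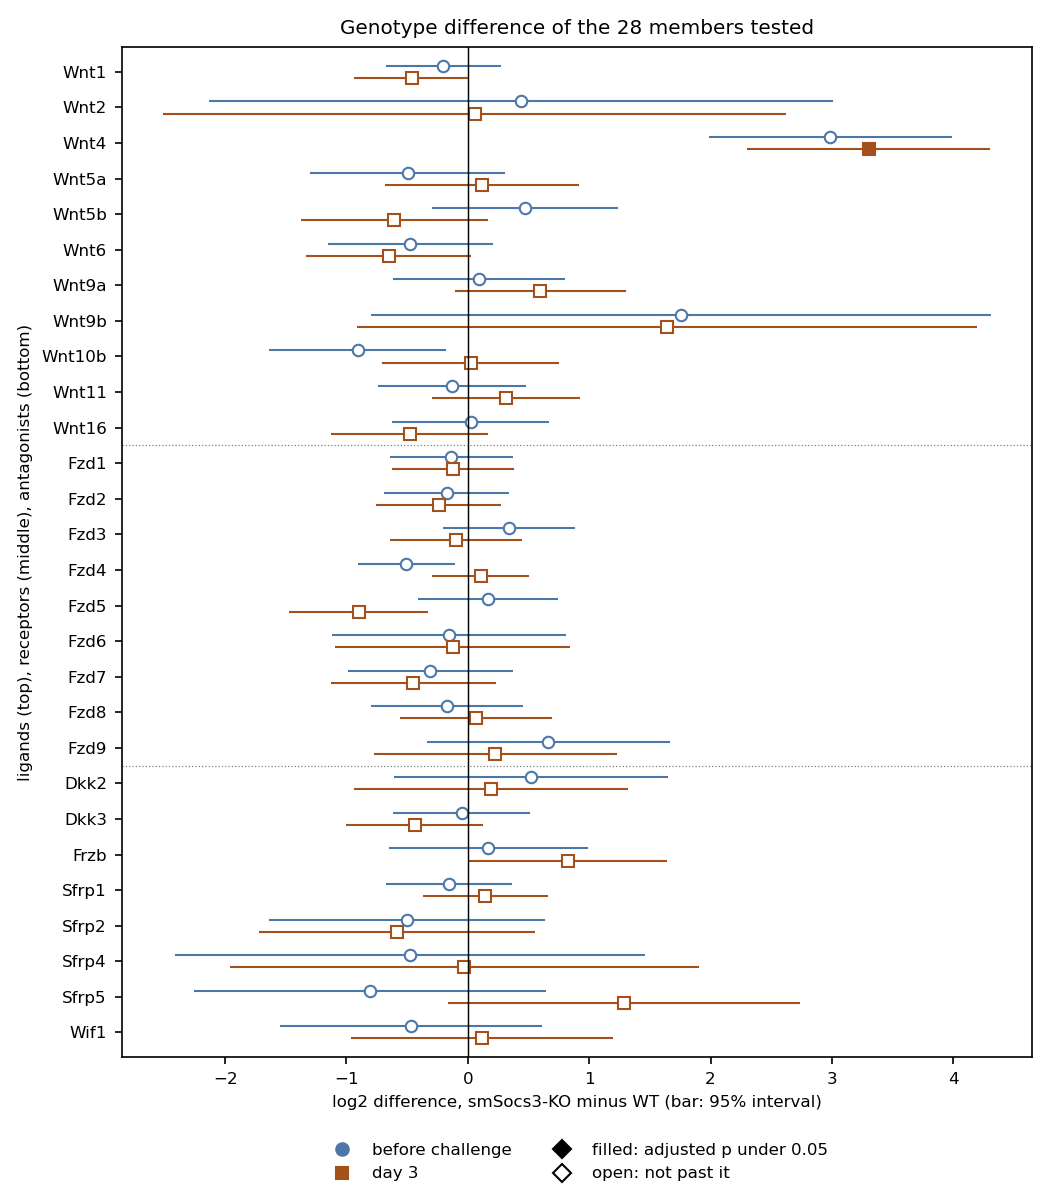
Log2 difference of smSocs3-KO minus WT (x axis) for the 28 tested genes (y axis, by role), with circles for before challenge, squares for day 3, bars for 95% intervals and filled symbols for limma adjusted p under 0.05. Wnt4 stands at 2.99 and 3.30, and of the other 27 genes none has a filled symbol.

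Whether the response to challenge depended on genotype was tested as the difference between the 2 responses. None of the 28 was called by limma, nor was any of the 22761 genes (0%), and none of the 28 passed the study's own threshold, against 0.308% of all genes. Fzd5 (-1.07), Fzd4 (0.61) and Sfrp5 (2.09) had an unadjusted p under 0.05, 3 of 28 against 5.33% of all genes. Their adjusted p-values were 0.897, 0.925 and 0.927.

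The rest of the pathway was read from 5 lists, with 75 genes tested in all. In WT 2 rose and 1 fell (4.0% against 4.68% of all genes), and in smSocs3-KO 2 rose and 2 fell (5.33% against 2.45%). Between genotypes none was called before challenge (0% against 0.0264%), and 1 was lower in smSocs3-KO at day 3 (1.33% against 1.11%). In the mean response 9 rose and 16 fell (33.3% against 22.7%). Wisp2 and Wisp1 encode secreted matrix-associated proteins first described as genes induced by Wnt1. Wisp2 read 4.20, 4.31 and 4.70 in WT before challenge and 5.63, 5.71 and 5.62 at day 3. In smSocs3-KO it was 4.16, 4.63 and 4.48 before and 6.16, 6.05 and 5.88 at day 3. It rose in both, by 1.25 (SE 0.18, limma adjusted p = 0.0279) and 1.61 (SE 0.18, adjusted p = 0.00618), with every challenged array above every other. The smSocs3-KO rise of Wisp2 held in 22 of 24 alternatives and the WT rise in 14 of 24.

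Wisp1 was 0.71, 0.93 and 0.85 in WT before challenge and 3.97, 3.89 and 1.84 at day 3, a rise of 2.40 (SE 0.47, limma adjusted p = 0.0329) that was called in 14 of 24 alternatives. In smSocs3-KO the change was 1.59 (adjusted p = 0.0887), also without overlap. The response-gene list held further calls in the mean response, with Myc (1.68), Cd44 (1.12) and Ccnd1 (0.90) higher and Dact3 (-0.73), a Dishevelled antagonist, lower. These genes are regulated by many other signals too.

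Tnfrsf19, a receptor of the tumour necrosis factor family that is a beta-catenin target, was -2.72, -2.87 and -2.56 in smSocs3-KO before challenge and -3.86, -4.53 and -4.41 at day 3. It fell there (log2 -1.55, SE 0.26, limma adjusted p = 0.0215), called in 16 of 24 alternatives, against -0.03 in WT. At day 3 it was lower in smSocs3-KO than in WT, by -1.26 (adjusted p = 0.0473), a call that held in 3 of 23 alternatives. With normexp background correction these 2 values were -0.74, still called, and -0.59, not called (adjusted p = 0.100). Apcdd1, a membrane inhibitor of the pathway, and Gpr124, a co-receptor component of endothelial cells, passed only the study's threshold. Both did so with challenge in smSocs3-KO and between genotypes at day 3. Gpr124 changed by 2.23 (adjusted p = 0.0706) with challenge and differed by 2.16 (adjusted p = 0.118) at day 3. Apcdd1 is given without a size, since it was mostly at background in the groups it was compared with, and its adjusted p-values were 0.104 and 0.0737. It was well above background on all 3 smSocs3-KO arrays at day 3, on 1 in each of WT day 3 and smSocs3-KO before challenge, and on none in WT before challenge. Apcdd1 thus passed the background filter only through the group where it was high, and its pass of the fold threshold depends on the background.

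In the beta-catenin list, Btrc, the ubiquitin ligase subunit that marks beta-catenin for breakdown, fell in WT (-0.94, SE 0.24, limma adjusted p = 0.0480, called in 8 of 24 alternatives) and changed by -0.70 (adjusted p = 0.121) in smSocs3-KO. Lef1 and Tcf7, transcription factors of the pathway that are also expressed in T cells, passed only the study's threshold in WT, at -2.08 (adjusted p = 0.0593) and -2.26 (adjusted p = 0.0667). Markers of lymphocytes had list means over 6 genes from -1.35 to -0.96 in WT before challenge and from -2.01 to -1.46 at day 3, with 1 of 6 called lower, and their part was not tested. In the mean response Bcl9, Btrc, Tcf7, Lef1 and Tcf7l1 fell and Ctnnbip1, an inhibitor of beta-catenin binding, rose (0.59, adjusted p = 0.0194). Of the 4 ligand-processing genes tested none was called, and Porcn, which attaches the lipid to Wnt proteins, had the lowest p in WT (-0.78, adjusted p = 0.0921).

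In the planar polarity and calcium list, Camk2b, a calcium-dependent kinase subunit, was 2.87, 2.94 and 3.07 in smSocs3-KO before challenge and 1.21, 1.20 and 0.99 at day 3, a change of -1.83 (SE 0.30, limma adjusted p = 0.0192) that held in 19 of 24 alternatives. Nfatc2, a calcium-regulated transcription factor, rose there by 1.57 (SE 0.30, adjusted p = 0.0341), a call that held in 11 of 24, and by the mean of its probes the value was 0.61 (adjusted p = 0.297). In WT neither was called, at -0.59 and 0.69. Nfatc4, of the same factor family, had the lowest p of the list in WT, at -0.58 (SE 0.19, limma adjusted p = 0.0938), with no overlap between days, and changed by 0.04 in smSocs3-KO. In the mean response Celsr1, Celsr2, Daam1, Daam2, Camk2b and Nfatc1 fell while Rac1 and Nfatc2 rose. Among the co-receptors Ryk rose (0.47, adjusted p = 0.0106) and Kremen1 (-0.50), Lgr6 (-0.68) and Reck (-0.71) fell in the mean response, and none was called within a genotype.

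**Figure D5:**
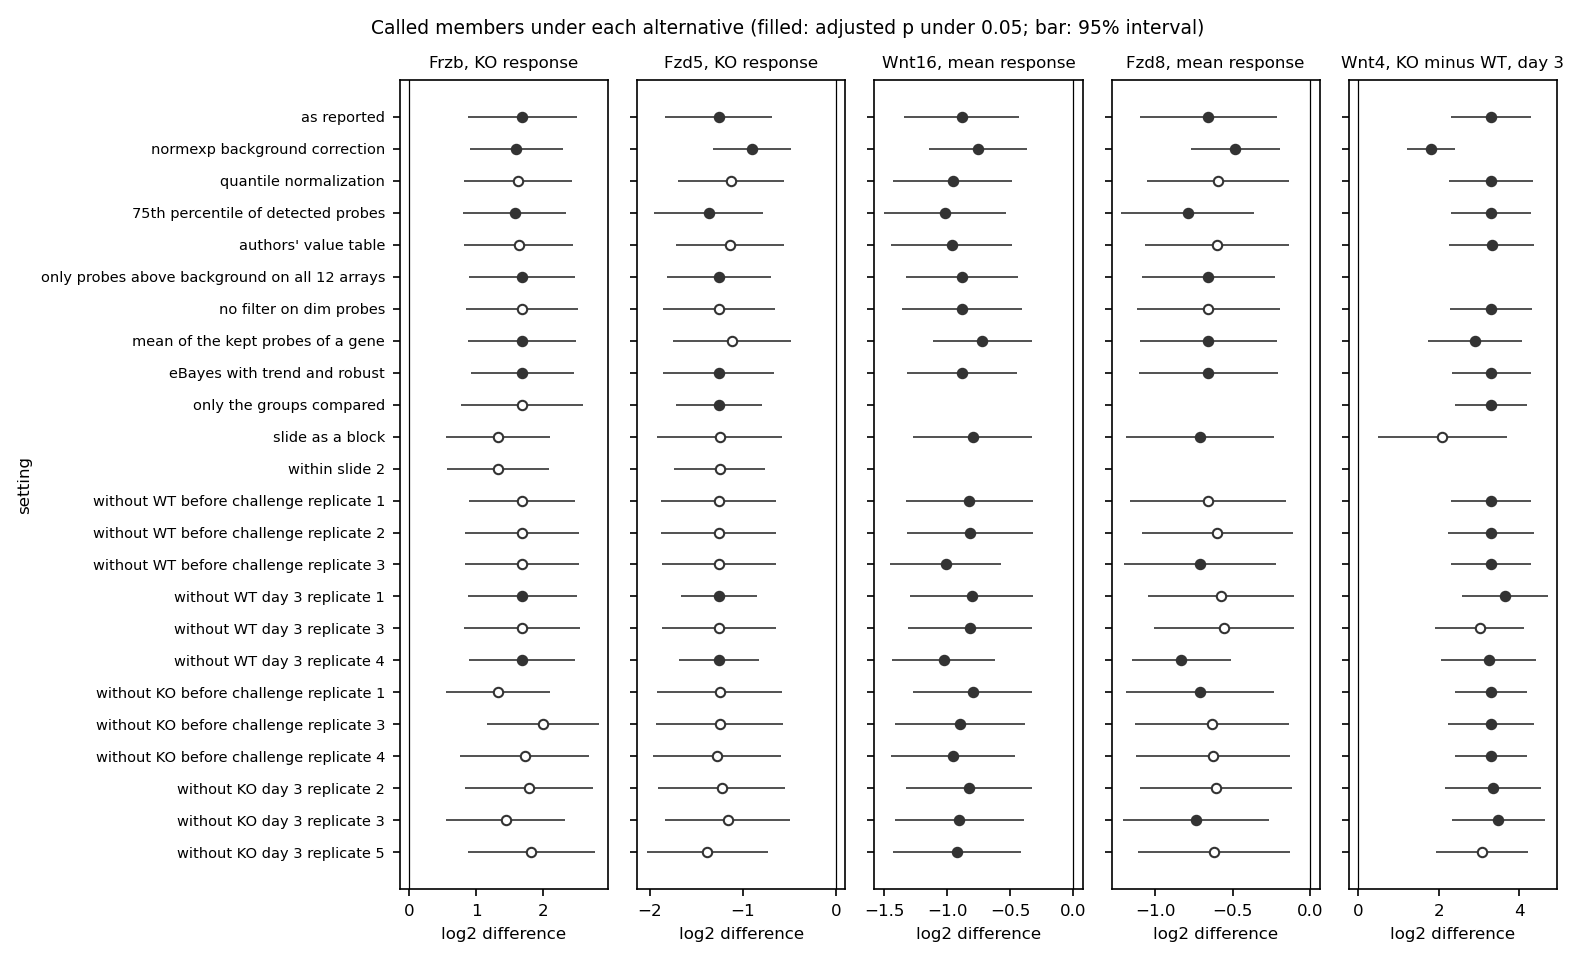
Log2 difference (x axes) with its 95% interval (bars) for the 5 called genes under each setting (y axis, KO for smSocs3-KO), as reported in the top line and with filled points for limma adjusted p under 0.05. The Frzb and Fzd5 responses in smSocs3-KO keep their call in 7 of 24 alternatives each, and Wnt4 at day 3 keeps it in 18 of 22. The fit with the replicate number as a block is included in these totals but not drawn. No point changes sign, but a difference cannot move where the array left out is not in its groups.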

How the data were processed

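Aortic RNA was measured on 12 one-colour Agilent arrays, grouped by the sample labels. The authors deposited each array's scanner output, whose processed signal is a linear intensity per spot after background subtraction (Feature Extraction, 9.5.1.1 in the submitters' processing notes and 10.7.1.1 in the file headers). They also deposited a table of intensity values of the same arrays, whose columns rank the probes almost as the scanner output does (Spearman correlation of at least 0.99997) and are quantile normalized. It served as an alternative. Control spots and spots flagged as outliers were left out, and spots of a probe were averaged. The log2 values computed here from the deposited intensities were taken minus the array's 75th percentile.

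A probe was kept if well above background (13 SD of it, per the file headers) on every array of 1 group or more, so that 32283 of 55681 remained. Each gene was represented by its brightest kept probe. limma 3.58.1 in R 4.3.3 fitted 4 group means to all 12 arrays, with Benjamini-Hochberg adjustment over 22761 genes, and the script was tested on simulated data. The methods name no array test beyond a p and fold threshold. With 3 arrays a group, precision is limited by their number.

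The family and the pathway and marker lists were chosen with earlier results of these data known. Values are given array by array for Sfrp1 and Wnt5a, for genes past either threshold in any comparison, and for the 3 with the lowest p in each comparison of 2 groups. Pathway genes are named where past either threshold in any comparison, or where lowest in p in their list for a challenge response. Alternatives were other background correction, scaling, filters and probe rules, the authors' table, limma's trend and robust options, only the groups compared, slide as a block or within a slide, the replicate number as a block, and leaving out each array. These are not independent of each other. For a challenge response, slide as a block gives the same size as leaving out smSocs3-KO before challenge replicate 1. The authors' table gives nearly the values of quantile normalization. Protein sequences are not used here.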

Additional observations from a re-analysis of the deposited data

How the results depend on the processing

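In the comparisons where a gene of the family was called, none of the settings tried turned its direction. Leaving out an array of a group not compared could not have done so. Counts of called family genes moved as follows. In smSocs3-KO the 2 calls became 0 with quantile normalization, the authors' value table, no filter on dim probes, slide as a block or only slide 2, 1 with the mean of a gene's probes or only the groups compared, and 3 with normexp correction or the trend and robust options. The 4 of the mean response became 5 with normexp correction, quantile normalization, the authors' table, probes above background on all arrays, or trend and robust options, and 6 with the 75th percentile of detected probes. At day 3 the 1 genotype call became 0 with only probes above background on all 12 arrays, since Wnt4 then dropped out, and with slide as a block. Leaving out 1 array gave 0 to 3 calls in WT, 0 to 3 in smSocs3-KO, 0 to 1 between genotypes before challenge, 0 to 2 at day 3, 0 for the difference of responses and 2 to 6 for the mean response. Counts over all genes moved more. The 1065 of the WT response became 615 with quantile normalization, 702 with the 75th percentile of detected probes, 614 with the authors' table, 10 without the filter, 1844 with trend and robust options, 2368 with slide as a block and 0 with only the groups compared, which are all on slide 1. The 557 in smSocs3-KO became 173 without the filter, 52 with slide as a block and 67 within slide 2. The 6 before challenge became 3 with the stricter filter and 0 with the slide block or within slide 1, where 1 smSocs3-KO array remains. The 253 at day 3 became 90 without the filter, 63 with only the groups compared and 0 with the slide block, and the 5178 of the mean response became 3385 without the filter. Leaving out 1 array gave 0 to 3628, 42 to 1918, 1 to 14, 45 to 615, 0 to 10 for the difference of responses and 2521 to 6435. The highest of the WT, smSocs3-KO, day 3 and mean response counts came without WT day 3 replicate 4. The causes were not tested. The 75th percentile of detected probes moved the median of all genes to -0.18 in WT, -0.17 in smSocs3-KO and -0.18 in the mean response, and the no-filter setting to -0.19 in smSocs3-KO and -0.18 between genotypes at day 3.

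With the replicate number as a block, which the data do not show to pair arrays (deviations of same-numbered arrays from their group means correlated from -0.403 to 0.464), the called genes of all were 0 in WT, 2 in smSocs3-KO, 1 before challenge, 2 at day 3 and 895 for the mean response, and the called family genes 0 in smSocs3-KO, 0 at day 3 and 2 for the mean response. Wnt4 at day 3 then stood at 3.39 (adjusted p = 0.202) and the mean Wnt16 response at -0.89 (adjusted p = 0.0852).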
